A study of Penicillium oxalicum with 18 samples.

Results

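A set of 238 of the 9230 genes in the transcriptome table of the filamentous fungus Penicillium oxalicum is described. Its genes were transcribed more strongly on glucose than on cellulose in the wild type. In the fbx23 deletion strain and in the complemented strain they stayed within 2-fold of the wild type in both media. They were chosen on the values described here. A member had a mean of at least 5 FPKM (fragments scaled to transcript length and to the number of mapped reads) in the wild type on glucose, and its mean log2(FPKM + 1) was lower on cellulose by at least 1.5. In the deletion strain and in the complemented strain, its mean log2(FPKM + 1) differed from that of the wild type by less than 1 in each medium. All 18 libraries entered this choice, so the levels and differences of the members are given as descriptions. Counts of members past a threshold of a fit over all genes are printed beside the same share of all genes, and they are no independent test of the members.

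The 18 libraries fall into 6 groups of 3. The WT is strain 114-2, Δfbx23 is the WT in which fbx23 was replaced by the hph cassette, and Refbx23 is Δfbx23 into which fbx23 was returned with the ptrA marker, so that its genotype carries both markers. Each strain was cultured in VMMG, with 2% glucose as the carbon source, or in the cellulose medium VMMC, after a glucose preculture of 24 h. By the labels the mycelium stayed in the second medium for 18 h, the medium was a modified Mendal's medium, VMMC held 1% bran and 1% microcrystalline cellulose, and libraries were made from tags. The methods of the paper differ on the medium, the bran, the duration and the library type, and the sources do not resolve the difference. No source says whether Δfbx23 or Refbx23 was more than 1 transformant, so each is taken as 1 strain. The paper calls the WT and Δfbx23 libraries biological triplicates without saying how the cultures were separated, and nothing is said of the Refbx23 libraries, so errors measure only the spread between these libraries.

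Filamentous fungi use glucose before other carbon sources. While glucose is present, carbon catabolite repression keeps the genes for cellulases and for the use of alternative sugars low, and glycolysis feeds pyruvate into the mitochondria through the pyruvate dehydrogenase complex. A rapidly growing mycelium also makes many ribosomes, nucleotides and cofactors, and takes up nutrients through membrane permeases. Cellulose has to be degraded by secreted enzymes before it can be taken up, so that a culture on cellulose grows more slowly and on a different nutrient supply. fbx23 codes for an F-box protein, the subunit by which an SCF ubiquitin ligase binds its substrates, and the study relates it to the transcription factor Ace1.

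The labels were checked against genes outside the set. fbx23 (PDE_08467) was listed at 76.8, 73.0 and 70.1 FPKM in the WT in VMMG and at 0 in all 6 Δfbx23 libraries, and in Refbx23 it was listed at 65.8, 64.4 and 74.9 FPKM in VMMG. Of 13 cellulase genes named in the paper's text, 9 of the 12 tested were at least 2-fold higher in VMMC in the WT and 2 were lower. The summed FPKM of a library ranged from 781397 to 954142 and was lower in the VMMC libraries. The gene PDE_09832 took up to 12.8% of this sum, in Refbx23 VMMG. It was listed at 90662.5, 116591 and 80574 FPKM there, against 16970, 17375 and 19256 in WT VMMG. Its share was 9.21% to 12.8% in Refbx23 VMMG and 2.94% to 7.43% in the VMMC libraries. In Δfbx23 VMMG the highest gene was PDE_07008, at 18830, 18476 and 16804 FPKM. FPKM are shares of a library, so a gene's level depends on what the other genes take up. Read numbers were not given. The size of the smallest steps between low values put the relative depth of the libraries between 0.971 and 1.049. Only steps close to the smallest were kept for this estimate, so it could not have shown a large difference in depth. In bulk RNA, fewer cells that transcribe a gene and less RNA of that gene per cell cannot be told apart.

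Within groups the libraries correlated at 0.970 to 0.9945 (Pearson, log2(FPKM + 1), 9230 genes). WT VMMG replicate 3 stood most apart, at 0.970 and 0.980 with the other 2 libraries of its group. In this library 9 members lay more than 2-fold above the mean of the other 2 libraries and 3 lay more than 2-fold below it, and in Δfbx23 VMMG replicate 1 the numbers were 13 and 2. In each of the other 16 libraries at most 5 members deviated so far in either direction. When the rule was applied without WT VMMG replicate 3 it found 227 genes, of which 195 were members, or 81.9% of the 238. Leaving out any other single library kept 213 to 237 of the members. Of the 8 members with the largest WT drop, 6 did not meet the rule when some single library was left out. These were PDE_00370 (WT VMMC replicate 1), PDE_00369 (WT VMMC replicate 2 or 3), PDE_04588 (WT VMMG replicate 3 or Refbx23 VMMG replicate 1), PDE_01482 (Refbx23 VMMG replicate 1), PDE_01479 (Δfbx23 VMMC replicate 2) and PDE_03434 (Δfbx23 VMMC replicate 3). Of the 8 highest members, PDE_02693 and PDE_02864 were lost without WT VMMG replicate 3 or WT VMMC replicate 2 or 3, PDE_03638 without WT VMMG replicate 3, and PDE_04802 without Refbx23 VMMG replicate 1.

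The rule narrowed the table in 3 steps. In the WT in VMMG, 6515 genes reached 5 FPKM, and 708 of these were lower in VMMC by 1.5 or more on the log2(FPKM + 1) scale. The limits between strains then left 238, a minority of the genes that the WT favoured on glucose. The limit that removed most genes was that on Refbx23 in VMMG: 317 of the 708 lay outside it, 292 of them lower than the WT and 25 higher. For Δfbx23 in VMMG 190 genes lay outside, for Refbx23 in VMMC 193 and for Δfbx23 in VMMC 161. The limit on Refbx23 in VMMG alone accounted for 142 exclusions, against 33, 25 and 11 for the limits on Δfbx23 in VMMG, Refbx23 in VMMC and Δfbx23 in VMMC. The 470 genes left out had a median WT difference of -2.63, compared with -1.95 for the 238 members, so the larger WT differences were more often among the genes that a limit removed. All of these counts follow from the rule itself.

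The members made up a visible part of the transcriptome on glucose. Together they held 11.9% ± 0.40 of the summed FPKM in the WT in VMMG (SD, n = 3) and 2.79% ± 0.18 in VMMC. In Δfbx23 the shares were 13.3% ± 0.21 and 3.57% ± 0.13, and in Refbx23 they were 8.34% ± 0.28 and 3.89% ± 0.041. The VMMG libraries of Refbx23 therefore lay below those of both other strains, and its VMMC libraries lay above those of the WT. The libraries of no group in VMMG overlapped with those of any group in VMMC. In Refbx23 VMMG, PDE_09832 took 9.21% to 12.8% of the summed FPKM. The part of this gene in the members' lower share there was not tested. Levels in the WT in VMMG ranged from 5.88 to 12891 FPKM with a median of 100.4, and 23 members reached 1000 FPKM. The median over the members in VMMC was 22.6 FPKM in the WT, 31.1 in Δfbx23 and 32.7 in Refbx23. The 8 highest members held 40.5% of the members' summed FPKM in the WT in VMMG and 35.3% in VMMC.

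**Figure D1:**
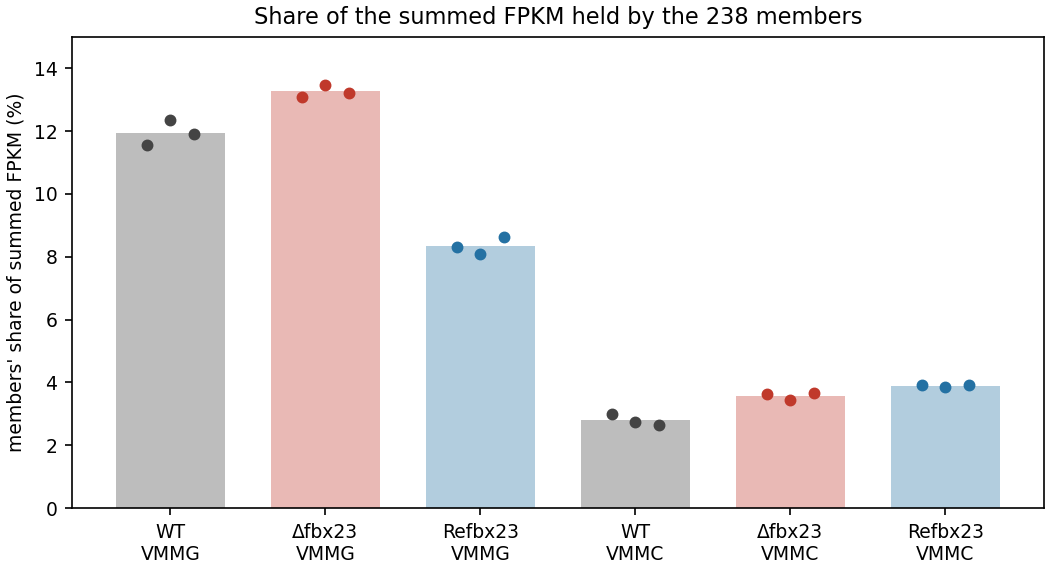
Share of the summed FPKM of each library held by the 238 members (y axis, percent) in the 6 groups of strain and medium (x axis); points are libraries and bars are means of 3. The WT and Δfbx23 sit near 12% and 13% in VMMG and Refbx23 sits at 8.34%, while all 9 VMMC libraries lie between 2.65% and 3.92%.

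The set is named glucose-favoured and alike in all strains. The rule nearly fixes the direction of the difference in every strain, but it leaves room for its size to vary. The difference between the media (VMMC minus VMMG, mean log2(FPKM + 1)) had a median of -1.95 over the members in the WT, -1.51 in Δfbx23 and -0.96 in Refbx23. Over all genes tested the medians were 0.13, 0.18 and 0.06. In Δfbx23 no member was higher in VMMC by its means, and in Refbx23 only PDE_02864 and PDE_07967 were. The WT had the largest drop of the 3 strains for 187 members, Δfbx23 for 43 and Refbx23 for 8, and Refbx23 had the smallest for 196. The limits allow this, because a strain may lie up to 2-fold under the WT in VMMG and up to 2-fold above it in VMMC. A set chosen by a threshold on the WT difference alone also leaves the WT, and no other strain, with a floor on its difference. Median-ratio scaling of the libraries moved the median of all genes by -0.13 in the WT and -0.16 in Δfbx23. Relative to the median of all genes, the members lay at -2.08, -1.69 and -1.02 in the WT, Δfbx23 and Refbx23 without scaling and at -2.09, -1.69 and -1.03 with it.

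In limma fits of log2(FPKM + 1), a gene was called where it differed 2-fold or more and its p, adjusted by Benjamini-Hochberg over all genes tested, was under 0.05. By this rule 238 of the 238 members were called lower in VMMC in the WT, where the background over all genes was 15.5% lower and 25.7% higher. In Δfbx23 204 members were called lower, against a background of 11.9% lower and 20.9% higher. In Refbx23 113 members were called lower, against 7.68% lower and 13.7% higher. No member was called higher in VMMC in any strain. These contrasts chose the members, so nothing is read from the counts. All 238 passed the filter of at least 1 FPKM in each of the 3 strains.

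The limits left room for differences between the strains. In VMMG the members' median difference from the WT was -0.06 in Δfbx23 and -0.58 in Refbx23, and in VMMC it was 0.34 and 0.48. Δfbx23 lay below the WT in VMMG for 136 of the 238 members and above it in VMMC for 200. Refbx23 lay below the WT in VMMG for 217 members, above it in VMMC for 206, and did both for 192. The number of members with an adjusted p under 0.05 against the WT was 37 of 238 for Δfbx23 in VMMG (background 25.3%), 124 of 226 tested for Δfbx23 in VMMC (background 50.7%), 151 of 238 for Refbx23 in VMMG (background 45.2%) and 169 of 226 tested for Refbx23 in VMMC (background 61.8%). The first of these counts depends on single libraries, with 10 members left without WT VMMG replicate 2, 17 without Δfbx23 VMMG replicate 3, and 23 without either WT VMMG replicate 1 or Δfbx23 VMMG replicate 2. The interaction of medium and strain passed for 94 members in Δfbx23 (background 42.8%) and for 193 in Refbx23 (background 57%). The rule bounds each of these contrasts and selects on the WT levels in them, so nothing is read from these counts or from their distance to the background.

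The fungal culture can hold hyphae and conidiating cells, so genes of the conidial pigment pathway are described beside the members. The summed mean FPKM of 6 DHN-melanin pigment genes in VMMG was 731.6 in the WT, 58.2 in Δfbx23 and 4178 in Refbx23, and 2996, 3075 and 2612.5 in VMMC. The lowest of the 6 genes had a mean of 0.95 FPKM, in Δfbx23 in VMMG. All 6 were called higher in VMMC in the WT and in Δfbx23, and 2 were called lower in Refbx23. Refbx23 in VMMG was thus the group with the highest pigment gene level and, among the VMMG groups, with the lowest share of the members. In VMMC the orders did not mirror each other. There Δfbx23 had the highest pigment gene level, but its members' share of 3.57% lay between 2.79% in the WT and 3.89% in Refbx23. The part of conidiating cells in the members' levels was not tested.

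**Figure D2:**
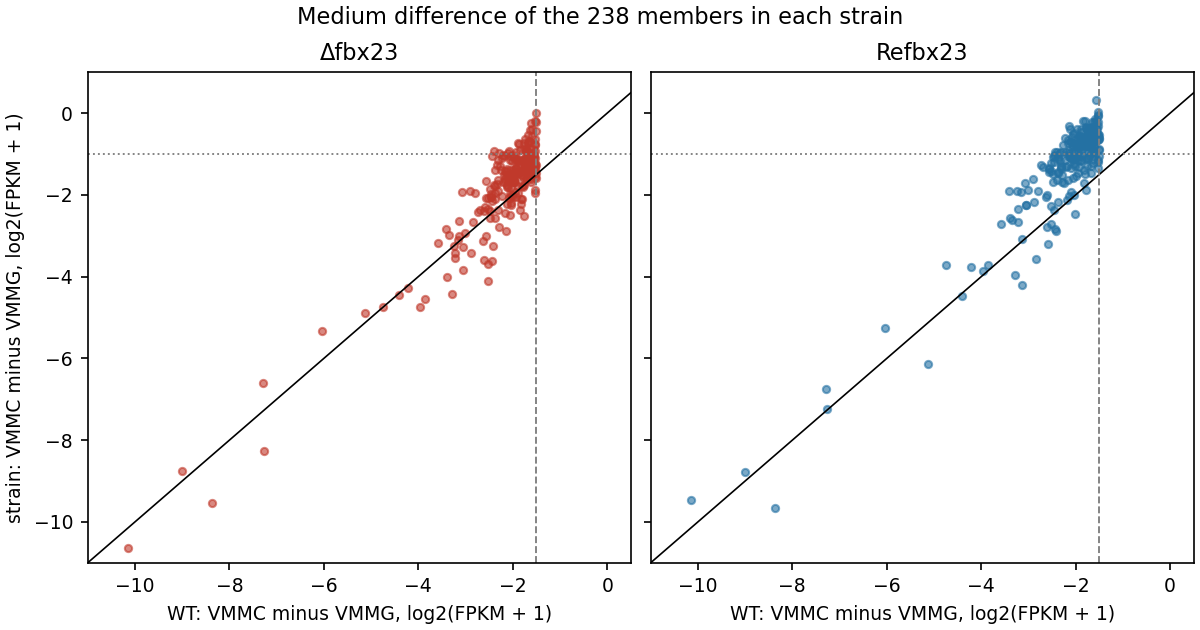
Difference between the media (VMMC minus VMMG, mean log2(FPKM + 1)) of each of the 238 members in Δfbx23 (left) and in Refbx23 (right) against that in the WT. The solid line marks equal differences, the dashed line the WT threshold of -1.5 and the dotted line a 2-fold drop. Most points of Refbx23 lie above the line of equal differences. The few members with the largest WT drops lie on both sides of it in each strain. PDE_00369, for example, lies below it, at -8.37 in the WT, -9.55 in Δfbx23 and -9.66 in Refbx23.

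The 8 members with the largest WT drop had low levels on cellulose, with means in VMMC from 0 for PDE_02095 to 7.51 FPKM for PDE_01479 in the WT. A mean under 1 FPKM in VMMC in all 3 strains was found for 8 members, of which PDE_02095 and PDE_01482 are among the largest drops. PDE_02095 was listed at 835, 902 and 1941 FPKM in the WT in VMMG, at 2578, 1436 and 1117 in Δfbx23 and at 744, 643 and 744 in Refbx23. It was listed at 0 in all 9 VMMC libraries, and no fold is given for it. PDE_08095 was likewise listed at 0 in all 9 VMMC libraries, from 5.48, 6.81 and 15.02 FPKM in the WT in VMMG. The sources annotate neither gene.

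The neighbouring loci PDE_00369 and PDE_00370 had similar profiles. PDE_00370, with a GO term for flavin adenine dinucleotide binding, the cofactor of many oxidases and dehydrogenases, was listed at 1593, 1837 and 1787 FPKM in the WT in VMMG and at 11.2, 0.39 and 1.32 in VMMC. In Δfbx23 it was listed at 1995, 2058 and 2169 FPKM in VMMG and 4.91, 4.2 and 2.67 in VMMC, and in Refbx23 at 1900.4, 1621 and 2013 FPKM in VMMG and 4.50, 2.96 and 2.41 in VMMC. The VMMG and VMMC libraries did not overlap in any strain, and the VMMG values of the 3 strains lay within a narrow band. The differences were -8.99 ± 0.74 (moderated SE, 3 libraries per medium) in the WT, -8.75 ± 0.17 in Δfbx23 and -8.77 ± 0.18 in Refbx23. In the WT, where the error was larger, VMMC replicate 1 lay above the other 2 libraries. PDE_00369 was listed at 629.9, 721 and 737 FPKM in the WT in VMMG and at 5.06, 0.16 and 0.31 in VMMC, and the same VMMC library was again the highest. Its differences were -8.37 in the WT, -9.55 in Δfbx23 and -9.66 in Refbx23. The next locus, PDE_00371, chosen for its position after its values were seen, was no member. It was lower in VMMC by 5.35 in the WT and 6.63 in Refbx23, and lay outside the rule because its level in Refbx23 in VMMG was above that of the WT by 1.15. PDE_00368 on the other side was listed at 5.33, 5.42 and 4.60 FPKM in the WT in VMMG and 5.24, 5.18 and 5.03 in VMMC.

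The loci PDE_01479 to PDE_01482 formed the only run of 4 consecutive members. PDE_01479 was listed at 875, 997 and 1639.5 FPKM in the WT in VMMG and at 14.5, 3.99 and 4.05 in VMMC. In Δfbx23 it was listed at 2837, 1265 and 1204 FPKM in VMMG and 5.83, 13.5 and 0.50 in VMMC, and in Refbx23 at 779, 883 and 921 FPKM in VMMG and 8.87, 2.20 and 4.85 in VMMC. VMMG values exceeded all VMMC values in every strain, and Δfbx23 VMMG replicate 1 was the highest library of all. PDE_01480 was listed at 416, 482 and 637 FPKM in the WT in VMMG and at 4.76, 1.31 and 1.52 in VMMC, PDE_01481 at 31.6, 41 and 60.9 FPKM in VMMG and 3.82, 3.41 and 3.37 in VMMC, and PDE_01482 at 43.9, 45.0 and 50.6 FPKM in VMMG and 0.53, 0.60 and 1.23 in VMMC. The 4 genes thus differed in level, and the rule sets their shared direction in the WT. The differences of PDE_01479 were -7.27 in the WT, -8.27 in Δfbx23 and -7.24 in Refbx23, and those of PDE_01482 were -4.75 in the WT, -4.75 in Δfbx23 and -3.72 in Refbx23. The flanking loci PDE_01478 and PDE_01483 were no members, with means of 2.87 and 8.74 FPKM in the WT in VMMG. The differences of PDE_01478 were -0.68 in the WT, -1.04 in Δfbx23 and 0.24 in Refbx23, and it was called lower in Δfbx23. Those of PDE_01483 were -0.42 in the WT, 0.20 in Δfbx23 and -0.18 in Refbx23, and it was called in no strain. The sources give no function for the 4 loci.

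PDE_03434 and PDE_04588 complete the 8 largest WT drops. PDE_03434 was listed at 82.0, 86.4 and 103 FPKM in the WT in VMMG and at 0.74, 0.16 and 0.33 in VMMC, with differences of -6.03 in the WT, -5.34 in Δfbx23 and -5.25 in Refbx23. PDE_04588, whose GO term is carbohydrate catabolic process, was listed at 62.9, 80.5 and 107 FPKM in VMMG and 1.49, 1.90 and 0.82 in VMMC in the WT, and at 122.39, 210.2 and 147.78 FPKM in VMMG and 1.06, 1.76 and 0.98 in VMMC in Refbx23. It was 1 of the few members whose level in VMMG was higher in Refbx23 than in the WT, by 0.93, and its differences were -5.13 in the WT, -4.88 in Δfbx23 and -6.13 in Refbx23. Over these 8 genes and PDE_01481, WT VMMG replicate 3 was the highest of its group for 8 of 9 genes and Δfbx23 VMMG replicate 1 for 7 of 9. In VMMC, WT replicate 1 and Refbx23 replicate 1 were each the highest for 7 of 9. The part of these libraries' state in the values was not tested.

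**Figure D3:**
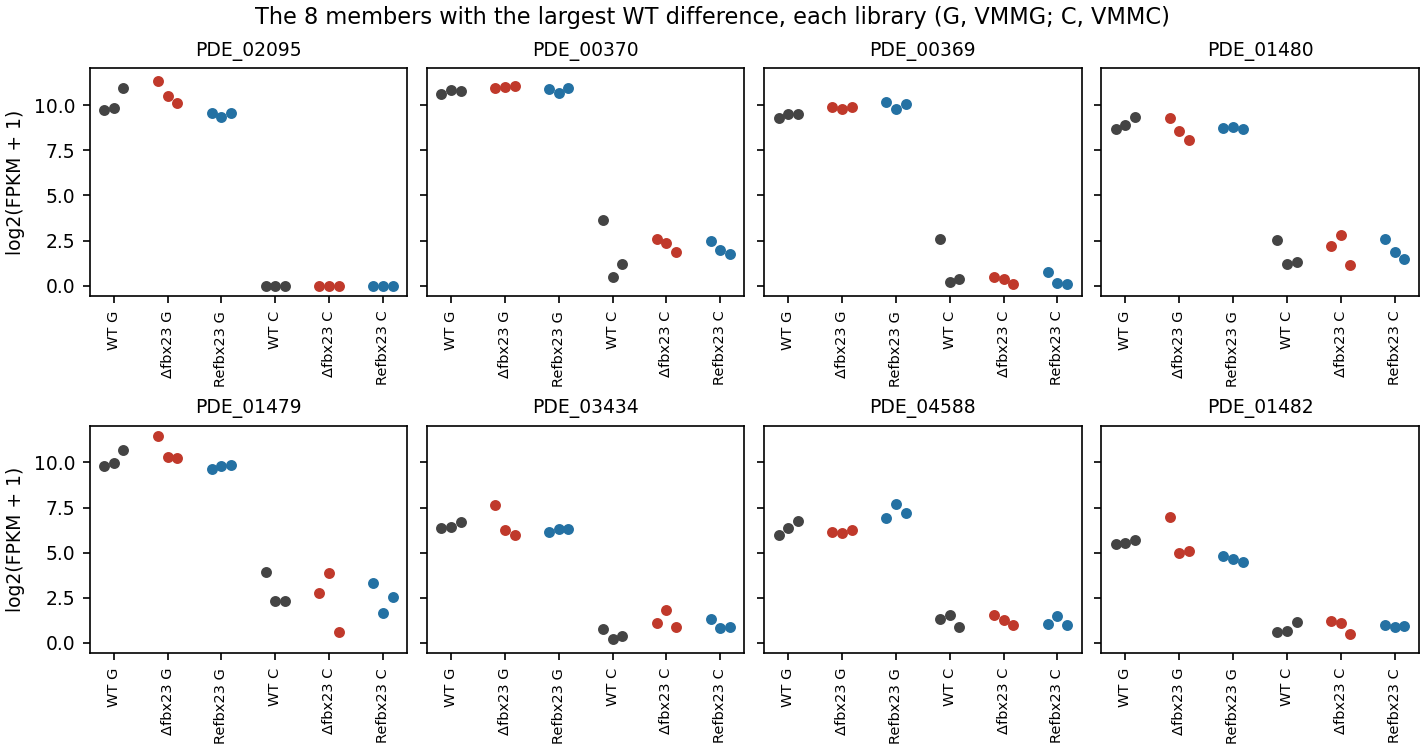
Transcription levels, log2(FPKM + 1), of the 8 members with the largest WT difference in each library; x axis, strain with G for VMMG and C for VMMC, points are the 3 libraries of a group. In each panel all 9 VMMG values lie above all 9 VMMC values, and PDE_02095 is listed at 0 in every VMMC library.

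The members with the highest levels kept a substantial level on cellulose. PDE_09952, the highest, was listed at 11436, 13394 and 13843 FPKM in the WT in VMMG and 1292, 1481 and 1297 in VMMC, at 16733, 16786 and 15332 FPKM in VMMG and 1874, 1509.5 and 1778 in VMMC in Δfbx23, and at 7734, 7452 and 7593 FPKM in VMMG and 2101, 2027 and 1927 in VMMC in Refbx23. Each medium's libraries stayed apart, and the 3 strains ordered as Δfbx23, WT and Refbx23 in VMMG without overlap. The differences were -3.25 ± 0.17, -3.25 ± 0.11 and -1.91 ± 0.06 in the WT, Δfbx23 and Refbx23. Its neighbour PDE_09951 followed the same order at a lower level, with 897, 1059 and 1117 FPKM in the WT in VMMG and 109.8, 125 and 106 in VMMC, and its differences were -3.16 in the WT, -3.11 in Δfbx23 and -1.93 in Refbx23.

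PDE_02785, with a GO term for organic anion transport, was listed at 5724, 6822 and 6963 FPKM in the WT in VMMG and 1665, 1372 and 1247 in VMMC. Its differences were -2.19 in the WT, -1.52 in Δfbx23 and -1.30 in Refbx23. PDE_09900 had a larger drop in Δfbx23 than in the WT, from 7281, 7078 and 7069.5 to 319, 317 and 282 FPKM against 5949, 5916 and 5107 to 398, 374 and 399. The differences of PDE_09900 were -3.85 ± 0.13 in the WT and -4.54 ± 0.08 in Δfbx23. PDE_03638, PDE_04802 and PDE_08859 had WT means of 4505, 3847 and 3178 FPKM in VMMG and WT differences of -2.45, -2.56 and -2.47, and in Refbx23 their differences were -1.06, -1.38 and -1.19. None of the 4 is annotated in the sources.

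PDE_02693 and PDE_02864 stood out among the high members because their difference was near 0 in Refbx23. PDE_02693 has 40S ribosomal protein S26E of Neurospora crassa, a protein of the small ribosomal subunit, as its best Swiss-Prot hit. It was listed at 3875, 4051 and 6427 FPKM in the WT in VMMG and 1856, 1520.3 and 1464 in VMMC, at 4975, 3859 and 4358 FPKM in VMMG and 2353, 2757 and 2641 in VMMC in Δfbx23, and at 2850.1, 2696 and 2757 FPKM in VMMG and 2679, 2541 and 2771 in VMMC in Refbx23. In the WT and in Δfbx23 the media did not overlap, and in Refbx23 they did. The differences were -1.54 ± 0.24, -0.76 ± 0.12 and -0.06 ± 0.06. PDE_02864 followed PDE_02693 closely, with differences of -1.52 in the WT, -0.63 in Δfbx23 and 0.03 in Refbx23. Without WT VMMG replicate 3 the WT differences of PDE_02693 and PDE_02864 were both -1.30, and neither gene met the rule. The same held for membership without WT VMMC replicate 2 or 3.

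PDE_02693 is on a list of 15 genes with cytosolic ribosomal proteins as best hits. The sources give a best hit for 482 loci only, so the list may lack other ribosomal protein genes. All 15 were called lower in VMMC in the WT, none in Δfbx23 and none in Refbx23, and the median differences were -1.31, -0.56 and -0.01. Over all genes tested 15.5%, 11.9% and 7.68% were called lower. PDE_02693 was the only member among the 15 listed genes. Of 11 translation factors and tRNA synthetases 3 were called lower and 2 higher in the WT, and of 11 tested ribosome biogenesis factors none was called in either direction in the WT. No gene of these latter lists, and none of the 17 genes for DNA replication and the cell cycle, was a member. Of all 9230 genes 238 were members, so nothing is read from an absence in lists this short.

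Several members have best hits to mitochondrial proteins. PDE_02440, with the E1 alpha subunit of pyruvate dehydrogenase of Saccharomyces cerevisiae as its best hit, belongs to the complex that converts pyruvate to acetyl-CoA. It was listed at 581, 574 and 565 FPKM in the WT in VMMG and 130.1, 103.73 and 99.5 in VMMC, at 563, 615 and 625 FPKM in VMMG and 150.3, 129 and 141 in VMMC in Δfbx23, and at 342, 373 and 375 FPKM in VMMG and 172, 172 and 173 in VMMC in Refbx23. WT and Δfbx23 overlapped in VMMG, Refbx23 lay below both, and no VMMC library reached a VMMG library. The differences were -2.37 ± 0.12, -2.10 ± 0.09 and -1.07 ± 0.06 in the WT, Δfbx23 and Refbx23. Of 9 tested genes of central carbon metabolism, 4 were called lower and 1 higher in the WT, 5 and 1 in Δfbx23, and 3 and none in Refbx23, with median differences of -0.98, -1.04 and -0.78.

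PDE_08711 has the mitochondrial GrpE homolog of N. crassa as its best hit, the nucleotide exchange factor of the Hsp70 chaperone that pulls proteins into the mitochondrial matrix. Its level was 124, 137 and 143.51 FPKM in the WT in VMMG and 35.4, 34.9 and 30.3 in VMMC, and in Refbx23 it was 74.6, 71.1 and 77.4 FPKM in VMMG and 61.8, 58.6 and 49.9 in VMMC. The media did not overlap in either strain, but they lay closer together in Refbx23, and the differences were -1.98 in the WT, -1.68 in Δfbx23 and -0.39 in Refbx23. PDE_00825, with the mitochondrial 37S ribosomal protein S23 of S. cerevisiae as its best hit, was listed at 76.5, 81.9 and 86.3 FPKM in the WT in VMMG and 31.6, 24.4 and 24.5 in VMMC, with differences of -1.58 in the WT, -0.98 in Δfbx23 and -0.56 in Refbx23. It was the only member of 5 listed mitochondrial ribosomal protein genes, of which 4 were called lower in the WT, 1 in Δfbx23 and none in Refbx23.

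PDE_01384 has a putative mitochondrial glycine dehydrogenase of Schizosaccharomyces pombe as its best hit, a subunit of the glycine cleavage system that yields one-carbon units. It was listed at 12.3, 14.5 and 30.1 FPKM in the WT in VMMG, at 29.1, 24.2 and 27.5 in Δfbx23 and at 10.4, 13.3 and 14.7 in Refbx23. In VMMC it was listed at 0 in 8 of 9 libraries and at 1.92 FPKM in Δfbx23 replicate 3, so that it was close to absent on cellulose in all strains. WT VMMG replicate 3 lay above the other WT libraries.

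The biosynthetic members differed in how far the strains departed. PDE_07967 has pyrABCN of Emericella nidulans as its best hit, the fused enzyme that starts pyrimidine synthesis. It was listed at 27.2, 27.9 and 58.4 FPKM in the WT in VMMG and 11.2, 11.8 and 10.9 in VMMC, and in Refbx23 the order turned round, with 17.7, 17.2 and 19.9 in VMMG and 23.02, 24.6 and 21.9 in VMMC. Its differences of -1.57 ± 0.28, -1.41 ± 0.12 and 0.33 ± 0.09 had the widest range over the strains of any member, 1.90. Without WT VMMG replicate 3 the WT difference was -1.22 and the gene did not meet the rule, nor did it without WT VMMG replicate 1 or 2, WT VMMC replicate 2 or Refbx23 VMMC replicate 3. PDE_03609, with the riboflavin kinase of Aspergillus fumigatus as its best hit, the enzyme that makes the flavin cofactor FMN, was listed at 103.93, 104.4 and 90.04 FPKM in VMMG and 21.3, 26.2 and 23.7 in VMMC in the WT, with differences of -2.02 in the WT, -1.17 in Δfbx23 and -0.73 in Refbx23. Of 21 genes for amino acid, cofactor, nucleotide and sterol synthesis, 3 were members, 6 were called lower and 3 higher in the WT, 6 and 1 in Δfbx23, and 2 and none in Refbx23.

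PDE_06406 and PDE_04769 have best hits to a sterol 3-beta-glucosyltransferase of Yarrowia lipolytica, which attaches glucose to membrane sterols, and to the phosphatase of S. pombe that removes phosphates from the C-terminal domain of RNA polymerase II. PDE_06406 was listed at 22.5, 23.8 and 23.2 FPKM in the WT in VMMG and at 1.41, 1.00 and 1.39 in VMMC. In Refbx23 the values were 10.9, 10.4 and 13.2 FPKM in VMMG and 2.51, 2.46 and 2.08 in VMMC, so that the media were apart in both strains. Its differences were -3.42 in the WT, -2.84 in Δfbx23 and -1.90 in Refbx23. PDE_04769 was listed at 32.2, 36.2 and 32.9 FPKM in VMMG and 10.5, 10.6 and 12.12 in VMMC in the WT, with differences of -1.53 in the WT, -1.22 in Δfbx23 and -0.66 in Refbx23. PDE_09448, chosen after its values were seen, codes for a transcription factor of the zinc cluster class, and its level was 26.99, 21.7 and 14.3 FPKM in the WT in VMMG and 4.66, 5.67 and 5.61 in VMMC, with differences of -1.76 in the WT, -0.88 in Δfbx23 and -0.60 in Refbx23.

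**Figure D4:**
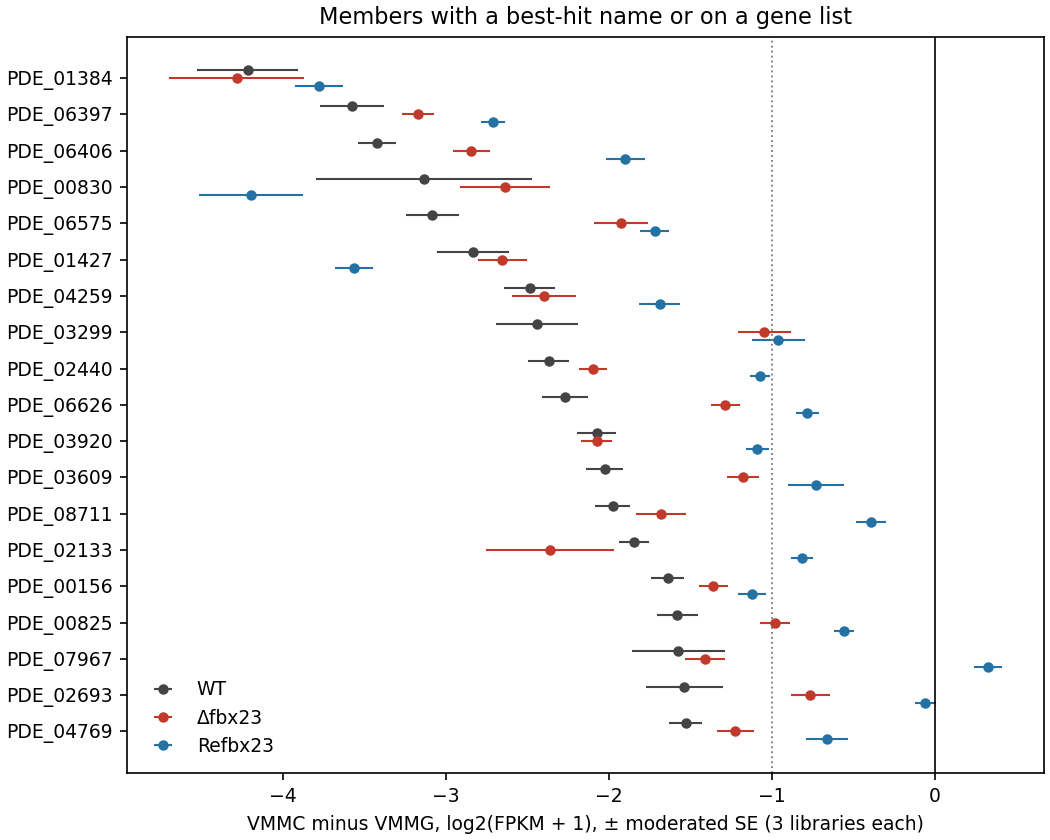
Difference between the media (x axis, VMMC minus VMMG, log2(FPKM + 1)) for the 19 members with a named best hit or on a gene list, in the WT, Δfbx23 and Refbx23; bars are moderated SE from 3 libraries per medium, the dotted line is a 2-fold drop and the solid line no difference. The WT point lies at or below -1.53 for every gene, and the Refbx23 points range from -4.20 to 0.33.

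Of the 29 members with a GO term, 12 have one for oxidation and reduction or their cofactors. A term for transport is carried by 13 members, of which PDE_03458 belongs to both groups. All 13 were called lower in VMMC in the WT, 11 in Δfbx23 and 10 in Refbx23, with median differences of -2.32, -1.92 and -1.30. Of all 238 members 238, 204 and 113 were called, and of all genes 15.5%, 11.9% and 7.68%, and the WT count is fixed by the rule. These terms were listed for their change in Δfbx23 in the same libraries, and some lists were shortened, so they serve as annotation only. PDE_06397, the only member of 46 genes with the term carbohydrate transport, was listed at 840.0, 709.7 and 537 FPKM in the WT in VMMG and 68.5, 50.6 and 52.0 in VMMC, at 862, 847 and 847 FPKM in VMMG and 81.6, 101 and 99.9 in VMMC in Δfbx23, and at 587, 590.3 and 601 FPKM in VMMG and 84.7, 86.2 and 99.2 in VMMC in Refbx23. The media were well apart in each strain, and the differences were -3.58 ± 0.20, -3.17 ± 0.10 and -2.71 ± 0.07. Of the 42 tested genes with this term 8 were called lower and 23 higher in the WT, so PDE_06397 went against the direction of most of the called ones.

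The 3 members with the term amino acid transport were PDE_00830, PDE_04259 and PDE_06575. PDE_00830 was listed at 19.9, 23.3 and 128 FPKM in the WT in VMMG and 4.11, 2.90 and 3.83 in VMMC, and the WT value rests largely on VMMG replicate 3. Without that library the WT difference was -2.30 instead of -3.13, and PDE_00830 did not meet the rule, nor did it without WT VMMG replicate 1 or 2 or Refbx23 VMMG replicate 2. In Refbx23 it was listed at 97.9, 38.9 and 82.2 FPKM in VMMG and 2.57, 3.25 and 2.53 in VMMC, a difference of -4.20 ± 0.32. PDE_06575 was listed at 39.2, 30.4 and 25.6 FPKM in VMMG and 2.54, 2.97 and 2.95 in VMMC in the WT, with differences of -3.08 in the WT, -1.93 in Δfbx23 and -1.72 in Refbx23. PDE_04259 was listed at 12.1, 11.4 and 8.36 FPKM in VMMG and 1.12, 1.05 and 1.00 in VMMC, and its differences were -2.48 in the WT, -2.40 in Δfbx23 and -1.69 in Refbx23. Of 28 tested genes with this term, 9 were called lower and 10 higher in the WT, with a median of 0.39.

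Among the other transport genes, PDE_00156 has an uncharacterized permease of S. pombe as its best hit and was listed at 80.2, 81.4 and 81.8 FPKM in the WT in VMMG and 28.4, 23.8 and 24.1 in VMMC. The strains lay close together in VMMG, and its differences were -1.64 in the WT, -1.36 in Δfbx23 and -1.12 in Refbx23. It was the only member among 22 permeases and transporters with Swiss-Prot names, of which 4 of 21 tested were called lower and 8 higher in the WT. PDE_02542 and PDE_04632, both with the term metal ion transport, had WT means of 35.1 and 19.03 FPKM in VMMG and WT differences of -2.06 and -2.04. PDE_04303, with transmembrane transport terms, had larger drops in Δfbx23 and Refbx23 than in the WT. Its differences were -2.42 in the WT, -3.25 in Δfbx23 and -2.89 in Refbx23. PDE_04229 and PDE_03465, both with the term organic anion transport, had WT differences of -2.44 and -2.04 and Refbx23 differences of -1.03 and -0.92. PDE_02377, PDE_03214 and PDE_03458 had WT differences of -1.88, -1.72 and -2.32.

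Terms for oxidation and reduction or their cofactors were carried by 12 members, of which 12 were called lower in the WT, as the rule fixes, 12 in Δfbx23 and 7 in Refbx23. The counts over all members were 204 and 113 of 238 in Δfbx23 and Refbx23, and the background over all genes was 15.5%, 11.9% and 7.68% in the 3 strains. Besides PDE_00370 their WT differences ran from -2.58 for PDE_08098, a heme-binding gene, to -1.52 for PDE_05880, a flavin-binding oxidoreductase gene. PDE_05880 was the member nearest the limit on Δfbx23 in VMMG, with 469, 377 and 476 FPKM there against 167, 217 and 301 in the WT, and Refbx23 lay between them by its mean, with 329, 309.9 and 391. PDE_02193, a dioxygenase gene, was listed at 74.1, 93.6 and 139.7 FPKM in the WT in VMMG and at 23.6, 19.2 and 20.3 in VMMC, and in Refbx23 at 159.9, 138.72 and 226 in VMMG and 40.9, 36.4 and 37.5 in VMMC. The other dioxygenase gene, PDE_02071, had differences of -2.005 in the WT, -2.05 in Δfbx23 and -2.46 in Refbx23. Of the 3 monooxygenase genes, PDE_06265 differed little between strains, with -1.82 in the WT, -2.10 in Δfbx23 and -1.72 in Refbx23, whereas PDE_02842 had -1.89 in the WT, -1.95 in Δfbx23 and -0.38 in Refbx23, and the third, PDE_01751, was among the lowest members with 4.97, 5.37 and 7.35 FPKM in the WT in VMMG.

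The 3 members with the term carbohydrate catabolic process were PDE_04588, described above, PDE_07158 and PDE_03736. PDE_07158 was listed at 433, 492 and 491 FPKM in the WT in VMMG and 80.9, 90.1 and 81.5 in VMMC, and at 808, 782 and 837 FPKM in VMMG and 143, 132 and 132 in VMMC in Δfbx23. Both media were higher in Δfbx23 than in the WT, by 0.78 and 0.68, so the differences of -2.47 and -2.57 were alike. PDE_03736 was listed at 502, 589 and 543 FPKM in VMMG and 171, 189.7 and 169 in VMMC in the WT, with differences of -1.62 in the WT, -1.43 in Δfbx23 and -0.93 in Refbx23. No member was among the genes with the terms cellulose catabolic process, hemicellulose catabolic process, cellulose binding or polygalacturonase activity, nor among the 13 cellulase genes. The 4 terms cover 20, 22, 27 and 16 genes, and of all 9230 genes 238 were members. The rule also bars every gene that is higher in VMMC in the WT, so nothing is read from this absence. Of 18 tested genes for cellulose catabolism 17 were called higher in VMMC in the WT and none lower.

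The 28 ranges of predicted secondary metabolism clusters held 284 of all 9230 genes and 6 of the 238 members. These shares were close, and nothing is read from the count. The 284 also include genes too low to be members, as only 234 passed the filter of 1 FPKM in the WT. GO terms for secondary metabolism or toxin synthesis were carried by 4 members. PDE_03920, the first locus of a cluster with a polyketide synthase as its backbone, was listed at 926, 1025 and 893 FPKM in the WT in VMMG and 250.2, 214 and 209.5 in VMMC, at 1237, 1482 and 1399.8 FPKM in VMMG and 328, 305 and 340.2 in VMMC in Δfbx23, and at 758, 685 and 782 FPKM in VMMG and 337, 363 and 343.25 in VMMC in Refbx23. Δfbx23 lay above the WT in both media and the difference was -2.07 in each of these strains, against -1.09 in Refbx23. PDE_02883, with the term secondary metabolite biosynthetic process, was listed at 304, 366 and 334 FPKM in VMMG and 35.3, 28.98 and 28.6 in VMMC in the WT, with differences of -3.40 in the WT, -4.001 in Δfbx23 and -2.57 in Refbx23. PDE_01427, PDE_02133, PDE_03299, PDE_04259 and PDE_06626 had WT differences of -2.83, -1.84, -2.44, -2.48 and -2.27. PDE_01616, with terms for mycotoxin synthesis, was listed at 41.7, 39.7 and 43.1 FPKM in the WT in VMMG and 11.7, 9 and 8.43 in VMMC. Of 234 tested genes in the cluster ranges, 43 were called lower and 91 higher in the WT.

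In 14 members the difference between the media varied by less than 0.5 over the 3 strains, and in 155 it varied by 1 or more. The members named for the smallest range over the strains were PDE_04632, PDE_01411, PDE_06765 and PDE_09389. The closeness of their differences follows from this choice. PDE_01411 was listed at 36.3, 37.5 and 64.7 FPKM in the WT in VMMG and 1.28, 1.1 and 1.04 in VMMC, at 84.1, 25.2 and 27.6 FPKM in VMMG and 0.46, 1.56 and 0.64 in VMMC in Δfbx23, and at 29.9, 37.1 and 37.6 FPKM in VMMG and 0.77, 0.58 and 0.48 in VMMC in Refbx23. Its differences of -4.41 ± 0.23, -4.45 ± 0.47 and -4.47 ± 0.13 lay closer together than their errors, although Δfbx23 VMMG replicate 1 was again far above the other 2 libraries. PDE_09389 had differences of -3.13 in the WT, -3.005 in Δfbx23 and -3.08 in Refbx23, and PDE_04632 had -2.04 in the WT, -2.04 in Δfbx23 and -2.01 in Refbx23. PDE_06765 reached its differences of -1.79 in the WT, -1.82 in Δfbx23 and -1.87 in Refbx23 at lower levels in Δfbx23, where both media lay below the WT by 0.89 and 0.92. None of PDE_01411, PDE_09389 and PDE_06765 is annotated in the sources.

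Near the thresholds the choice was fine-grained. The members just inside the WT threshold were PDE_09611, PDE_00249 and PDE_05424, with WT differences of -1.502, -1.514 and -1.515, and the genes just outside were PDE_00629, PDE_00455 and PDE_05987, with -1.496, -1.495 and -1.493. Of the inner 3, PDE_00249 had a difference of -0.004 in Δfbx23. The lowest members by level were PDE_01751, PDE_06447 and PDE_08098, with WT means in VMMG of 5.90, 5.88 and 7.25 FPKM, and the genes just below the minimum were PDE_08928, PDE_09317 and PDE_06915, with 3.95, 3.61 and 3.48. The members nearest the limits on Refbx23 in VMMG, Δfbx23 in VMMC and Refbx23 in VMMC were PDE_06072, PDE_09942 and PDE_00262, at -0.994, 0.992 and 0.983 from the WT.

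Of the 238 members, 30 lay in runs of consecutive locus numbers, which were 13 pairs and the run of 4. Locus numbers were taken to follow the order of the genes, which was not checked on a genome. Pairs could differ widely in size. PDE_02096 beside PDE_02095 was listed at 509, 635 and 752 FPKM in the WT in VMMG and 112, 102 and 88.4 in VMMC, with differences of -2.62 in the WT, -3.12 in Δfbx23 and -2.05 in Refbx23, while the flanking loci PDE_02094 and PDE_02097 had WT means of 3.57 and 2.23 FPKM in VMMG. PDE_04633 beside PDE_04632 had -3.35 in the WT, -2.98 in Δfbx23 and -2.62 in Refbx23. PDE_05604 had -2.44 in the WT, -3.62 in Δfbx23 and -2.82 in Refbx23, and PDE_05605 had -2.17 in the WT, -1.68 in Δfbx23 and -1.05 in Refbx23. PDE_07279 was listed at 2956, 3396 and 2635 FPKM in the WT in VMMG and 998, 946 and 856 in VMMC, and PDE_07280 beside it had a WT mean of 730.4 FPKM in VMMG and a WT difference of -1.95. The WT differences in the pairs not described so far ran from -2.21 for PDE_01946 to -1.51 for PDE_07944. Whether the loci of a pair are transcribed together was not tested.

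For 192 of the 238 members the sources give no best hit, GO term or list, and none of the 20 genes that carry a provider's name in the table was a member. The spread between libraries was of the same order as elsewhere: the median SD of log2(FPKM + 1) over the members was 0.19, 0.17 and 0.10 in VMMG (WT, Δfbx23 and Refbx23 in turn) and 0.14, 0.13 and 0.08 in VMMC, compared with 0.17, 0.13, 0.12, 0.12, 0.11 and 0.08 over the 6515 genes with at least 5 FPKM in the WT in VMMG. The moderated SE of the difference between the media had a median of 0.15 in the WT, 0.13 in Δfbx23 and 0.09 in Refbx23 over the members.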

How the data were processed

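The transcriptome of 3 strains in 2 media was measured in 18 libraries. The authors mapped the reads, normalized them to FPKM and deposited 1 table of 9230 genes with 2 decimals. The aligner and the genome build are not given in the sources used here. Columns were assigned to samples by the labels, and none was left unassigned. The members and gene lists were chosen with earlier results of these data known.

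Differences were taken between group means of log2(FPKM + 1), a scale that understates the change of low genes. limma 3.58.1 in R 4.3.3 was fitted to the 6 libraries of a comparison (12 for an interaction), with its trend option and Benjamini-Hochberg adjustment. Genes whose mean over those libraries was under 1 FPKM were left out. The steps were tested on simulated data. Named members were the 8 highest, the 8 largest WT drops, those at thresholds, the 4 most even, those with a best hit or on a list, and runs of loci. Members with GO terms, pairs of loci, members near 0 in VMMC, flanking loci and PDE_09448 were added after their values were seen. Best hits came from the study's purified-protein tables, and 3 of the 28 cluster ranges were read past a misprint. The gene table of a different strain shares 0 identifiers with these data, so positions, lengths and sequences were not used here. Counting limits could not be given because read numbers are unknown. Alternatives were pseudocounts of 0.1 and 0.5, other filters and thresholds, a replicate block, median-ratio scaling, 1 fit of all libraries, no trend, and leaving out each library. Tables and figures were made with Python, pandas, numpy and matplotlib.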

Additional observations from a re-analysis of the deposited data

How the results depend on the processing

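The direction of the members' medians, which the rule largely sets, held under every alternative run. The rule found 629 genes with a WT difference of at most -1, 110 with at most -2, 111 with a strain limit of 0.75 and 397 with one of 1.5. The first and last of these sets held all 238 members. The other thresholds, pseudocounts and scaling gave 228 to 291 genes, and leaving out 1 library gave 227 to 253. The median difference in Δfbx23 was -1.67 after median-ratio scaling. With an adjusted p and any fold, 224 members were lower in VMMC in Refbx23, and over all genes 2493, 2183 and 2164 were lower in the WT, Δfbx23 and Refbx23.

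Deviations of same-numbered libraries from their group means correlated at -0.19 to 0.26. The highest correlation with another number was -0.04 to 0.21. With 3 libraries per group these values cannot decide whether same-numbered samples are paired. With a replicate block, 21 members had an adjusted p under 0.05 for Δfbx23 against the WT in VMMG, where 37 had one without it and 67 with all 18 libraries in 1 fit. Leaving out 1 library gave 10 to 52 for this comparison. Over all genes tested 25.3% had one in the main fit, and this share was not taken for the alternatives. The block moved no other count of calls by over 1.5 times. Without 1 library, members called lower in VMMC numbered 237 to 238 in the WT, 198 to 207 in Δfbx23 and 109 to 117 in Refbx23. Over all genes tested the numbers were 1208 to 1290, 916 to 958 and 568 to 634. No called difference of a named member turned its sign. The cause of these shifts was not tested, and depth limits could not be set without read counts.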
